A study of Mus musculus with 28 samples.

Results

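The 10 genes described here are the immediate early transcription factors *Fos*, *Fosb*, *Fosl1*, *Jun*, *Junb*, *Jund*, *Egr1*, *Atf3*, and *Nr4a1*, together with *Ier3*. They were taken from the files by symbol, and all 10 were found among the 56980 genes of the bulk RNA-seq table and among the 32285 genes of the single-cell matrices. The mice were male and female C57BL/6 animals, and every one, controls included, had a 5/6 nephrectomy before an arteriovenous fistula (AVF) was made by an end-to-side anastomosis of jugular vein and carotid artery. The bulk libraries each held 1 vessel, with 7 contralateral jugular veins (5 female and 2 male), 8 early AVFs labeled day 3, 5 mid AVFs labeled day 10, and 5 late AVFs labeled day 21. The early AVFs were mostly from male mice, and the mid and late AVFs mostly from female mice. The 3 single-cell libraries each held cells dissociated from a pool of vessels, 1 library each for contralateral veins, early AVFs, and late AVFs, and the study's methods place these AVFs later on average than the bulk vessels of the same name. The contralateral vein is therefore a vein of an operated mouse with reduced kidney mass and not of a healthy one.

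Immediate early genes are transcribed within minutes of a growth factor, mechanical, or stress signal from factors already present in the cell, and their transcripts are short lived. The Fos proteins (*Fos*, *Fosb*, *Fosl1*) pair with the Jun proteins (*Jun*, *Junb*, *Jund*) to form AP-1, while *Atf3* encodes a stress-induced partner that often represses transcription. *Egr1* encodes a zinc finger factor induced by shear stress and injury in vessel walls, *Nr4a1* an orphan nuclear receptor, and *Ier3* a small protein linked to survival signaling. The same genes are known to be switched on while a tissue is digested into single cells, which is why undissociated vessels and dissociated cells were set side by side.

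The members were matched by symbol to 250-base windows before the RefSeq start sites of GRCm38.p6, and 8 of 10 had an entry (*Fosl1* and *Egr1* did not). The windows of *Fos*, *Fosb*, *Atf3*, and *Nr4a1* are shown as examples of windows that hold the motif TGACG, the core of the cAMP response element, or its reverse complement CGTCA, in capitals, and the *Jun*, *Jund*, and *Ier3* windows, which held none, are not. The *Jund* window ends at chr8:70697738, whereas the *Jund* gene of the GENCODE annotation starts at chr8:70698949. Absence of a motif from that window therefore does not cover the bases next to the annotated *Jund* gene. The *Atf3* and *Nr4a1* windows lie inside the genes of that annotation (chr1:191170296-191218039 and chr15:101254269-101274795). Their motif distances are therefore to the RefSeq start site and not to the outermost annotated start of the gene. The *Fos* window is chr12:85473640-85473889 on the plus strand, the *Fosb* window chr7:19310046-19310295 on the minus strand, the *Atf3* window chr1:191183334-191183583 on the minus strand, and the *Nr4a1* window chr15:101266596-101266845 on the plus strand.
Fos: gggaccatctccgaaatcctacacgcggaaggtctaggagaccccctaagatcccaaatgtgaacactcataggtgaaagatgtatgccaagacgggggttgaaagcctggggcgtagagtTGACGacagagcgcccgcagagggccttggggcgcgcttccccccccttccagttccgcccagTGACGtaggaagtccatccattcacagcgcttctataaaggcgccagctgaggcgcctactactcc
Fosb: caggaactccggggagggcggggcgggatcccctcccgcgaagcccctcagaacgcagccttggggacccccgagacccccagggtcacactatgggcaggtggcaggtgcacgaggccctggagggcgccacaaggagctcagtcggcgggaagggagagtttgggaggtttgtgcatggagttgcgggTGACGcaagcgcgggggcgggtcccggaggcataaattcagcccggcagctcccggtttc
Atf3: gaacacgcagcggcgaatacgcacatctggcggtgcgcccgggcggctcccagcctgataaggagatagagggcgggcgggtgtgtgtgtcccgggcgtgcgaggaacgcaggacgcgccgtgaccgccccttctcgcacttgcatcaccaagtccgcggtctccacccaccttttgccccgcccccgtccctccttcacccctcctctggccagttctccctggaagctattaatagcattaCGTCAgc
Nr4a1: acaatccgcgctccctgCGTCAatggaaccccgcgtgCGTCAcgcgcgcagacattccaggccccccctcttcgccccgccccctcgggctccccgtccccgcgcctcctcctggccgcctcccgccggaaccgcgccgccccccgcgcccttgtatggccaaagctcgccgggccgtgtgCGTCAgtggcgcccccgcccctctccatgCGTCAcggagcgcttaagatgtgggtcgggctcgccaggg
Searched on both strands, TGACG was present in 5 of the 8 windows (*Fos*, *Fosb*, *Junb*, *Atf3*, and *Nr4a1*), compared with 17.8% of 32851 RefSeq windows of the same length. *Nr4a1* held 4 copies, with first bases 233, 213, 69, and 40 bases before the start site, and *Fos* held 2, at 129 and 66 bases. The full palindrome TGACGTCA (1.55% of windows), the AP-1 site TGACTCA (4.46%), and the CArG box of serum response factor (1.47%) were in none of the 8 windows, which covers these letters in these windows only. The TATAAA box (12.4% of windows) was in the *Fos* window alone, 33 bases before the start site.

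The bulk libraries held 20254173 to 67457501 counts, and 12673 genes with a mean normalized count of at least 100 were tested, 9 members among them. *Fosl1*, with a mean of 24.7, did not pass. Among the genes tested, 2.86 to 22.5% were at 0 counts in the contralateral veins, against 0.0789 to 4.70% in the AVFs, so the veins were the noisier group. Contralateral veins 632 and 633 are both male and carry numbers from another range, so sex and vein number cannot be told apart in this group. Fibroblast, smooth muscle, and endothelial marker lists were detected in every group, at shifted levels. The median of the summed smooth muscle markers was 11035 CPM in contralateral veins and 1797 CPM in early AVFs, and that of the endothelial markers 2702 and 472 CPM, with no overlap of the groups in either sum. In bulk tissue, fewer cells of a type and less RNA per cell cannot be told apart.

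Baseline levels of several of the immediate early genes varied widely between contralateral veins, whereas others varied no more than genes at large. In CPM (counts scaled per library to the total of the tested genes after TMM), *Fos* was at 0 in vein 34, 6.12 in vein 28, 32.8 in vein 35, 86.8 in vein 31, 187 in vein 27, 322 in vein 633, and 1040.2 in vein 632. *Egr1* ran from 0.453 CPM in vein 34 through a median of 79.1 to 510 in vein 632. *Junb* ran from 0.907 CPM in vein 34 through 89.9 to 238 in vein 633. Vein 34 was the lowest of 7 for 4 of the 9 tested members, and vein 632 the highest for 3. *Fosb* was at 0 in 4 veins, at 0.158 CPM in vein 27, at 3.62 in vein 633, and at 56.1 in vein 632, so its group mean rested on a single vessel. The SD of log2 CPM among veins placed *Fos* at the 99.95th percentile of all tested genes, *Egr1* at the 99.7th, *Atf3* at the 94.3rd, and *Junb* at the 89.3rd. *Fosb* was at the 80.3rd, *Nr4a1* at the 51.0th, *Jun* at the 42.7th, and *Ier3* at the 24.9th. *Jund*, a family member known for steady expression, was at the 14.5th. 

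The spread was smaller among AVFs, for the members as for genes at large. The SD of *Fos* was 3.43 on the log2 scale among contralateral veins, 0.50 among early, 0.95 among mid, and 0.77 among late AVFs, where the medians of all tested genes were 1.63, 0.53, 0.22, and 0.24. In mid AVFs the spread of *Fos*, *Fosb*, *Jun*, and *Egr1* lay between the 97.2nd and the 98.6th percentile. Mid AVF 15 had the lowest level of 8 of the 9 tested members, and mid AVF 9 had the highest of 5. The late AVFs were nearly alike for *Fosb*, between 2.24 and 2.85 CPM, and for *Nr4a1*, between 37.5 and 51.0 CPM.

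**Figure D1:**
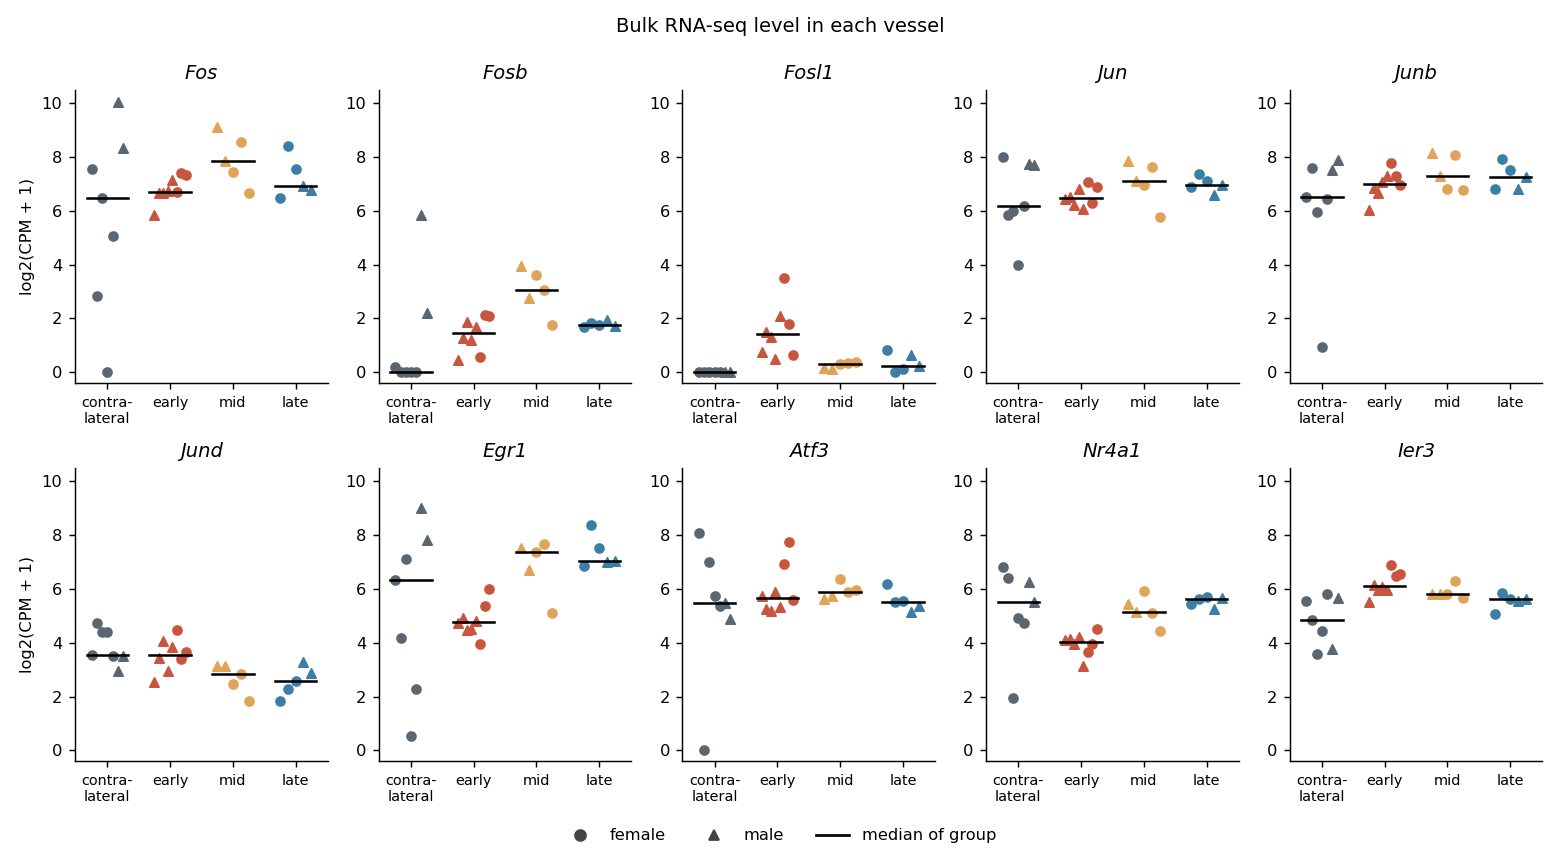
Level of each of the 10 genes in each bulk library as log2(CPM + 1), by group (circles, female; triangles, male; line, median of the group). The contralateral veins span from 0 to 1040 CPM for *Fos*, whereas the 8 early AVFs lie between 56.1 and 170 CPM.

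The early comparison asked how the genes stood days after the vein was opened to arterial flow. In early AVFs *Nr4a1* fell and *Ier3* rose against contralateral veins, and the other 7 tested members did not pass the test (adjusted p under 0.01 with a change of at least 1 on the log2 scale). These 2 of 9 members compare with 12.6% of all tested genes called in this comparison (6.17% higher and 6.45% lower). *Nr4a1* was at 112, 84.3, 2.80, 29.6, 25.8, 75.2, and 45 CPM in contralateral veins 27, 28, 31, 34, 35, 632, and 633, and ran from 7.78 through a median of 15.4 to 21.5 CPM in the 8 early AVFs. Vein 31 alone lay below the early AVFs, and the other 6 veins lay above all of them. The level fell by 1.83 on the log2 scale (SE 0.45, adjusted p = 0.00362, edgeR quasi-likelihood test). The call did not hold without vein 27, without early AVF 5, without early AVF 6, with female mice alone, or with only these 2 groups fitted, and the log2 fold change stayed between -2.03 and -1.52 in all 35 alternatives. The smooth muscle and endothelial marker sums were lower in the same early vessels, and the part of cell composition in the fall of *Nr4a1* was not tested.

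*Ier3* ran from 11 through a median of 27.4 to 55.4 CPM in the contralateral veins and from 44.8 through 67.6 to 116 CPM in the early AVFs, with the groups overlapping at veins 27, 35, and 633. The log2 fold change was 1.24 (SE 0.32, adjusted p = 0.00608, edgeR quasi-likelihood test). It was past the threshold in 22 of 35 alternatives, with an adjusted p between 0.000493 and 0.0668 and the same sign in all 35. The call was lost without contralateral vein 34 or 632, early AVF 6, 7, or 10, mid AVF 12 or 13, or late AVF 16 or 23, where the log2 fold change of *Ier3* over single libraries left out was 1.10 to 1.38. Among early AVFs, number 6 was the highest at 116 CPM, and this library also had the largest share of tested genes at 0 of any AVF (4.70%). The marker lists of neutrophils and of monocytes and macrophages, the lineages with the highest single-cell levels of *Ier3* in the contralateral and early libraries, moved with this group. Summed over 6 neutrophil markers the level was 0.0783 to 108 CPM in contralateral veins and 213 to 4330 CPM in early AVFs, and over 7 monocyte and macrophage markers it was 1547 to 6256 CPM and 10018 to 30611 CPM. The groups did not overlap in either sum, and the part of cell composition in the change of *Ier3* was not tested.

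*Egr1* was lower in early AVFs by the means without passing the test. It ran from 14.3 through a median of 26.5 to 63.0 CPM in early AVFs, a range that lay inside that of the contralateral veins. The log2 fold change was -2.20 (SE 0.75, adjusted p = 0.0343, edgeR quasi-likelihood test), and it was called in 2 of 35 alternatives, the DESeq2 Wald test and the fit without vein 34. The log2 fold change of *Egr1* ran from -2.54 to -0.24 over the 35 alternatives, with -0.24 in female mice alone and -0.65 without veins 632 and 633. *Fos* (-1.04, SE 0.82), *Fosb* (-2.18, SE 1.28), *Jun* (-0.42, SE 0.40), *Junb* (0.13, SE 0.51), *Jund* (-0.37, SE 0.46), and *Atf3* (-0.09, SE 0.68) had adjusted p values between 0.236 and 0.943 in the same test. The direction of *Fosb* rested on vein 632, since its log2 fold change was 1.56 without that vein. With veins 632 and 633 both left out, a choice made after seeing the data, *Fosb* was called higher at all 3 time points (5.65, 7.77, and 6.04 on the log2 scale), against a group in which only vein 27 had any *Fosb* count.

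*Fosl1*, which encodes the AP-1 subunit FRA-1, was detected in the AVFs and had no count in the 7 contralateral veins. Its level in early AVFs 1, 2, 3, 4, 5, 6, 7, and 10 was 0.697, 1.82, 1.48, 0.402, 3.27, 10.4, 2.45, and 0.552 CPM. All 8 early AVFs thus lay above all contralateral veins, and early AVF 6 stood apart from the rest. The share of all genes that separate in this way is not given here. More tested genes were at 0 in the contralateral veins (2.86 to 22.5%) than in most AVFs (0.0789 to 4.70%). The part of detection in the contralateral zeros of *Fosl1*, and so in the bound and p-values below, was not tested. Set against a floor of 3 counts per contralateral library, the mean of 2.64 CPM gave a lower bound of 20.5-fold. The difference of the means, 2.64 against 0 CPM, had p = 0.00388 (exact two-sided permutation test). The floor took no part in that test, so its p-value does not belong to the bound. Without early AVF 6, a choice made after seeing the data, the mean of *Fosl1* was 1.53 CPM and the bound 11.9-fold. The difference of the means then had p = 0.000583 (exact two-sided permutation test). The mid AVFs were at 0.0910 to 0.306 CPM, below every early AVF, and the late AVFs at 0 to 0.756 CPM. The share of all genes that separate mid from early AVFs in that direction is not given here either. In bulk this gene is uncertain, because 57.2% of its exonic bases are shared with *Ccdc85b* on the opposite strand, and whether the counting used strand is not given in the sources used here.

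**Figure D2:**
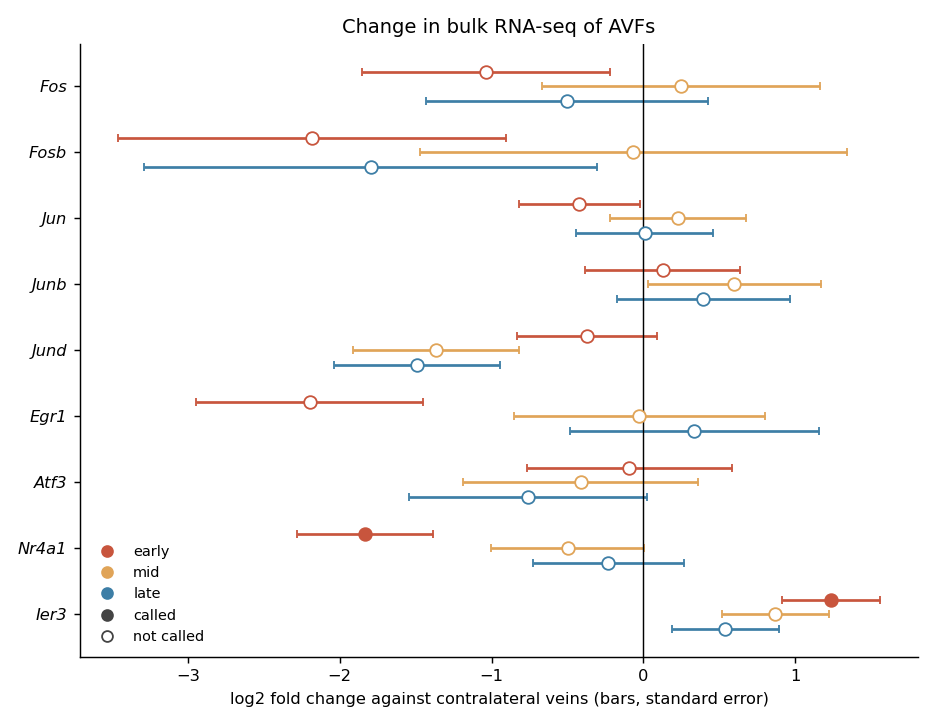
Log2 fold change of the 9 tested members in early, mid, and late AVFs against the 7 contralateral veins (points; bars, standard error; filled points passed the test). The filled points are *Nr4a1* at -1.83 and *Ier3* at 1.24, both in early AVFs.

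No member was called in mid or late AVFs against contralateral veins, where 6.05% and 5.33% of tested genes were called by the same edgeR test. At an unadjusted p under 0.05, *Jund* and *Ier3* passed in mid AVFs and *Jund* in late AVFs, against 25.9% and 24.8% of all tested genes. *Ier3* was at 58.1 ± 11 CPM in mid AVFs (SD, n = 5), with a log2 fold change of 0.87 (SE 0.35). *Jund* was at 14.9 ± 7.02 CPM in contralateral veins (SD, n = 7), 11.5 ± 5.15 in early (n = 8), 5.77 ± 2.24 in mid (n = 5), and 5.29 ± 2.35 in late AVFs (n = 5). Its late values of 2.59, 3.84, 4.96, 8.65, and 6.42 CPM overlapped those of the contralateral veins at vein 632. The log2 fold change was -1.49 in late AVFs (SE 0.55, adjusted p = 0.0770, edgeR quasi-likelihood test), and the DESeq2 Wald test alone called it. For *Jund*, 52.6% of exonic bases are shared with the antisense gene *Gm11175*, which had no count, so the bulk level of *Jund* may leave out reads from that stretch and is uncertain.

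Between time points, *Egr1* and *Nr4a1* were at higher levels in every late AVF than in any early AVF, a separation in this direction seen for 7.16% of tested genes. Late AVFs 16, 17, 19, 23, and 24 had 114, 327, 182, 126, and 131 CPM of *Egr1*, against 63.0 at most in the early group. For *Nr4a1* the same vessels had 42.4, 48.4, 51.0, 37.5, and 49.2 CPM, against 21.5 at most. Neither was called, with log2 fold changes of 2.54 for *Egr1* (SE 0.80, adjusted p = 0.0525) and 1.60 for *Nr4a1* (SE 0.48, adjusted p = 0.0375) in the edgeR quasi-likelihood test. When only these 2 groups were fitted both were called, and the adjusted p over all alternatives ranged from 0.00147 to 0.860 for *Egr1* and from 0.000977 to 0.936 for *Nr4a1*. The test called 3.01% of genes in late against early AVFs, 0.00789% in mid against early, and 0 genes in late against mid AVFs (39 genes there, or 0.308%, had an unadjusted p under 0.05), and no member was called in any of the 3.

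Genes related by pathway were counted from lists, which were chosen with earlier results of these data known, and each count is read beside the 12.6% of tested genes called in early AVFs (6.17% higher and 6.45% lower). None of the 13 tested AP-1 and ATF relatives was called in early AVFs (median log2 fold change 0.17, beside -0.01 over all tested genes). Of 20 other immediate early genes, *Egr3* rose and *Klf4* fell. *Egr3*, a zinc finger factor related to *Egr1*, was at 0 to 0.940 CPM in contralateral veins and at 2.16 to 20.1 CPM in early AVFs, and it was also called at the mid and late time points, where *Klf2*, a flow-responsive endothelial factor, fell by 1.68 and 2.06 on the log2 scale. The endothelial marker sum was 2234 to 3711 CPM in contralateral veins, 463 to 686 in mid, and 561 to 783 in late AVFs, without overlap, and its part in the change of *Klf2* was not tested. Of 16 tested feedback inhibitors none rose and 2 fell in early AVFs, *Errfi1*, an inhibitor of the epidermal growth factor receptor (fell by 2.25, SE 0.34), and *Nab1*, a corepressor of Egr proteins (fell by 1.85, SE 0.29). *Ppp1r15a* (fell by 1.31) was the only one of 11 integrated stress response genes called.

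Among 10 tested genes known as AP-1 targets, 6 rose and 1 fell in early AVFs, where 6.17% and 6.45% of all tested genes did, and the list's median was 3.34 (-0.01 over all tested genes). The summed monocyte and macrophage markers moved the same way in these vessels, from 1547 to 6256 CPM in contralateral veins to 10018 to 30611 CPM in early AVFs, and their part in these changes was not tested. The largest changes were those of the chemokine *Ccl2* (5.20, SE 0.74), the collagenase *Mmp13* (4.70, SE 1.12), the protease inhibitor *Timp1* (4.55, SE 0.42), and the heme oxygenase *Hmox1* (3.90, SE 0.61). *Mmp3*, named after its value was seen, fell by 2.25. The whole list, the genes that rose included, was chosen with earlier results of these data known, so its counts are descriptions only. *Timp1* and *Mmp13* remained called in mid and late AVFs. Of 10 heat shock genes known to rise during tissue digestion, *Hspa1a* (fell by 3.15, SE 0.44) and *Hspa1b* (fell by 2.46, SE 0.44) were lower in early AVFs and none was higher. Of 10 reference genes 2 rose in early AVFs, *Gapdh* (1.54) and *Rplp0* (1.69).

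The 5 genes whose pattern over the 25 bulk libraries was most like the mean standardized level of the 9 members were *Zfp36* (Spearman 0.887), *Ajuba* (0.775), *Rasl11b* (0.771), *Scyl3* (0.767), and *Nudt18* (0.759). These figures are descriptions over libraries that share groups, depth, and, in the contralateral veins, detection. *Zfp36*, which encodes a protein that promotes decay of unstable mRNAs, was at 20.4 to 455 CPM in contralateral veins, 55.7 to 136 in early, 71.9 to 226 in mid, and 81.3 to 209 in late AVFs.

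In dissociated cells every member that could be compared was above every undissociated vessel of the same condition. The level over all cells of a single-cell library was set against the bulk vessels over 12371 genes measured by both, each scaled to CPM. All 9 measured members were above the highest vessel in contralateral veins, early AVFs, and late AVFs, where 12.5%, 10.9%, and 16.4% of all genes were. *Fosb* was at 1236, 719, and 1789 CPM in the 3 single-cell libraries, where the vessels lay at 0 to 53.4, 0.357 to 3.76, and 2.48 to 3.33 CPM. The difference on the log2(CPM + 1) scale for *Fosb* was 7.07, 7.96, and 8.89, and in late AVFs no gene of the 12371 had a larger one. *Jund* differed by 6.70, 6.24, and 7.78, the next largest of the members in each condition. The bulk level of *Jund* may leave out reads from the 52.6% of its exonic bases shared with *Gm11175*, so the size of its gap is uncertain.

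The smallest gap was that of *Ier3* in contralateral veins, with 187 CPM in cells against 11.1 to 54.2 CPM in vessels, a difference of 2.54. *Fos* was at 2120, 2075, and 4140 CPM in cells, against at most 989, 190, and 352 CPM in vessels, a difference of 3.16, 4.15, and 4.47. *Atf3* differed by 2.98, 4.11, and 5.25, and *Egr1* by 3.85, 4.86, and 3.86. The median of the 9 members was 3.85, 4.58, and 4.47, where the median of all genes was -0.42, -0.73, and -0.92. Each member lay at or above the 97.4th percentile of all genes in each condition. With 1 single-cell library per condition the gap has no replicate check on that side, and the protocols differ in transcript coverage, dissociation, cell recovery, and harvest day, which cannot be told apart. Dividing bulk counts by transcript length kept all 9 members above every vessel, but in contralateral veins it placed *Ier3* at the 72.6th percentile (3385 genes had larger differences), *Atf3* at the 91.7th, and *Fos* at the 94.4th.

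**Figure D3:**
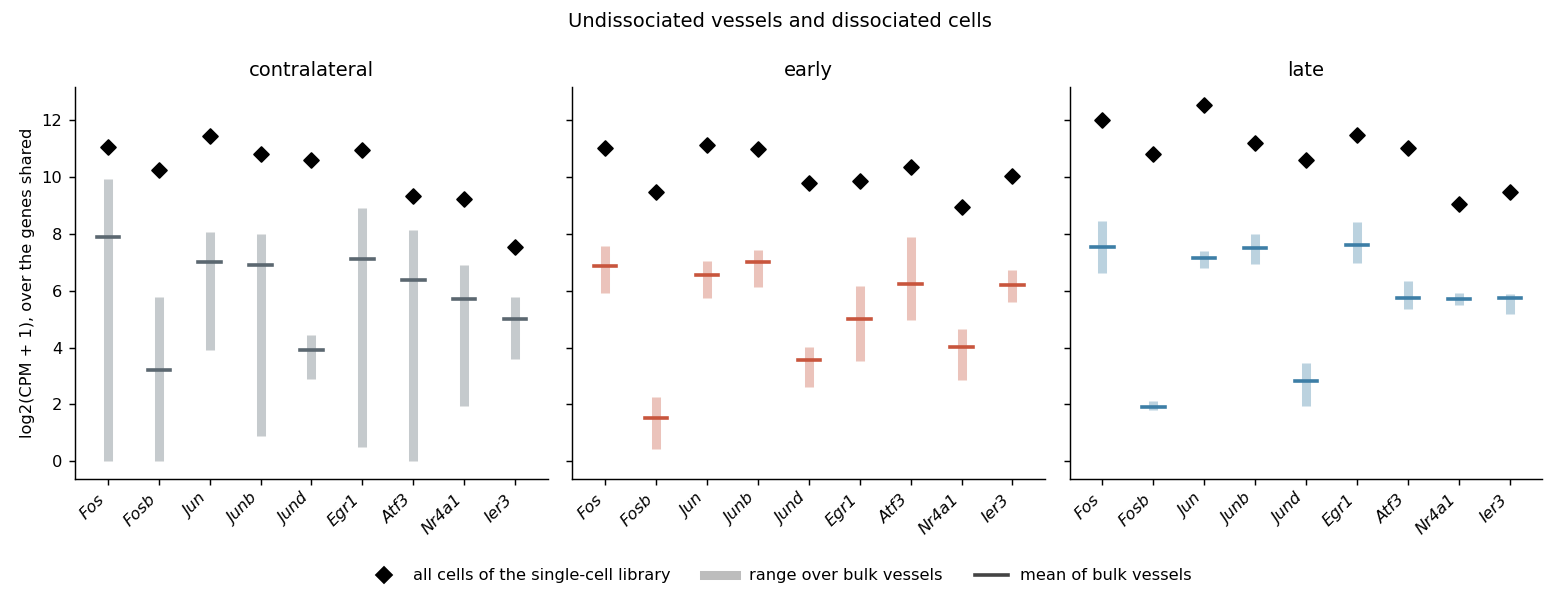
Level of the 9 members measured by both protocols, as log2(CPM + 1) over the 12371 shared genes (diamonds, all cells of a single-cell library; shaded bars, lowest to highest bulk vessel; lines, mean of the vessels). Every diamond lies above its bar, with *Fosb* and *Jund* farthest, and the bulk level of *Jund* is uncertain.

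The related lists were set beside the members in the same way. The 10 heat shock genes were all above 0, with a median difference of 3.11, 3.11, and 4.72 in contralateral veins, early AVFs, and late AVFs, the late value being above that of the members. The 20 other immediate early genes had medians of 1.90, 2.06, and 2.72, and the 16 measured feedback inhibitors 1.22, 2.17, and 1.85. The 10 measured AP-1 targets had 1.94, 0.87, and 1.91. The integrated stress response list had 0.22, -0.39, and -0.17, the AP-1 and ATF relatives 0.55, 0.64, and 0.54, and the reference genes -0.29, 0.07, and 0.35. *Fosl1*, not among the genes set side by side, had 87 unique molecular identifiers (UMIs) in the contralateral library, 615 in the early library, and 2316 in the late library, or 2.98, 11.02, and 23.5 CPM, where its bulk means were 0, 2.64, and 0.321 CPM.

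The differences between conditions were not of the same size in both protocols, and for the means of *Atf3* they ran in opposite order. The mean bulk level of *Atf3* was 80.1, 75.2, and 47.3 CPM in contralateral veins, early AVFs, and late AVFs, and its single-cell level 607, 1250.1, and 1951 CPM. The bulk medians of *Atf3* were 43.7, 49.3, and 44.4 CPM, without that order, and the contralateral mean included vein 27 at 270 CPM. For *Nr4a1* the early level relative to contralateral veins was -1.83 on the log2 scale in bulk and -0.24 in single cells. For *Atf3* the late level relative to contralateral veins was -0.76 in bulk (SE 0.78) and 1.68 in single cells. The same comparison gave -0.50 (SE 0.93) and 0.99 for *Fos*, and -1.79 (SE 1.49) and 0.56 for *Fosb*. The other tested members had the same sign in both protocols there, with a value near 0 for *Jun* and *Jund*. *Jun* was at 0.0079 in bulk (SE 0.45) and 1.12 in single cells, and *Jund* at -1.49 (SE 0.55) and -0.0049. In late against early AVFs, *Jund* was at -1.12 in bulk (SE 0.53) and 0.79 in single cells. *Atf3* was at -0.67 (SE 0.76) and 0.64 there, and the other tested members had the same sign in both protocols. *Ier3* was 1.24 higher in early bulk vessels and 2.54 higher in early single cells, and *Egr1* was -2.20 and -1.08. The differences between protocols in these values were not tested.

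The single-cell libraries kept 6319, 4753, and 5821 cells after filtering, of 11563, 7074, and 7801 barcodes, with a median of 2751, 8951, and 15425 UMIs per cell, and 14 to 19 barcodes were shared by pairs of libraries. Clusters were named from marker lists in 11 lineages. A shallow cluster of 1123 cells (median 1154 UMIs), 668 of them in the early library, was left unnamed. Its leading genes were mixed, among them *Pth*, *Chga*, *Spp1*, *Lyz2*, and the hemoglobin genes *Hbb-bt* and *Hbb-bs*. The levels below are CPM, the UMIs of a gene scaled to the total of its lineage, with exact Poisson intervals that cover counting error only. Most contralateral fibroblasts were in clusters 8 and 10 and most AVF fibroblasts in clusters 1 and 11, and likewise most contralateral macrophages were in cluster 13 and most AVF macrophages in clusters 0 and 2. The members, the related lists, and the markers were kept out of the clustering.

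Apart from *Fosl1*, each member had UMIs in every lineage of at least 20 cells, and the orders of lineages differed between genes. *Fos* was highest in Schwann cells and smooth muscle cells, at 4557 (95% interval 4444 to 4671) and 4310 CPM in contralateral veins and at 8790 and 6475 CPM in late AVFs, with only 25 Schwann cells in the late library. In the early library smooth muscle cells led at 4414 CPM, and T and NK cells had 699 CPM. *Egr1* was highest in fibroblasts in the contralateral and late libraries, at 3154 and 4094 CPM, and near-equal in early smooth muscle cells (1940 CPM) and fibroblasts (1917 CPM). Dendritic cells (349, 163, and 152 CPM) and T and NK cells (352, 150, and 282 CPM) were the lowest lineages for *Egr1* apart from erythroid cells and platelets in the contralateral library.

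*Junb* was at 6412 CPM in neutrophils (64 cells), 4178 in monocytes and macrophages, and 3868 in T and NK cells, against 1361 in smooth muscle cells, 1169 in B cells, and 1090.03 in fibroblasts of the contralateral library. *Nr4a1*, which T cells are known to induce on antigen receptor signaling, was at 2418 CPM in contralateral T and NK cells, 795 in early, and 602 in late AVFs. In the other contralateral lineages *Nr4a1* was at 1255 CPM in neutrophils, 1251 in dendritic cells, 1104 in B cells, 771 in Schwann cells, 660 in smooth muscle cells, and 369 in monocytes and macrophages. *Ier3* was at 1290 and 1315 CPM in early neutrophils and macrophages, at 908 in early fibroblasts, and at 85.1 in early T and NK cells. *Atf3* in the early library was highest in macrophages (1437 CPM), smooth muscle cells (1390 CPM), and neutrophils (1342 CPM), and lowest in B cells (142 CPM). *Fosl1* was at 133 CPM in contralateral neutrophils and at most 29.7 CPM in any late lineage.

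**Figure D4:**
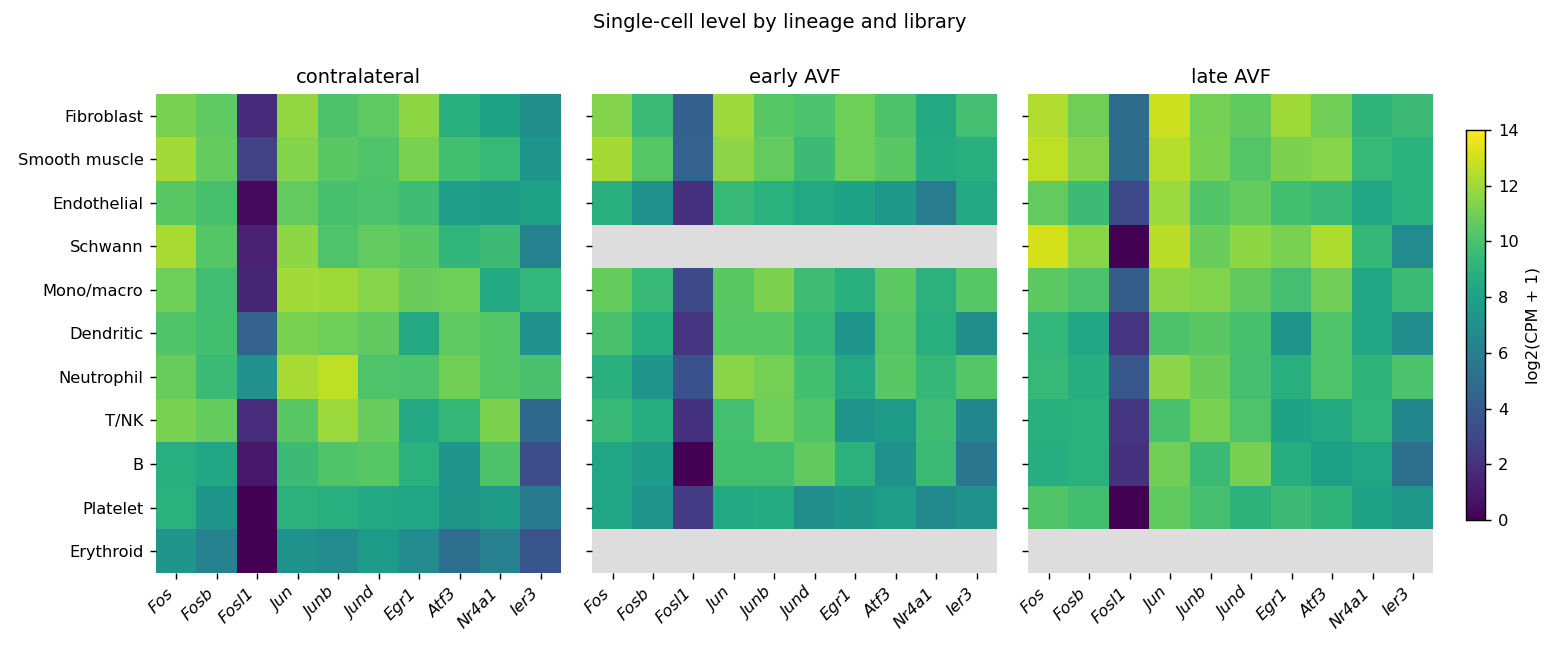
Single-cell level of the 10 genes as log2(CPM + 1) (color) by lineage (rows) and library (panels), for lineages of at least 20 cells (gray, fewer cells). *Fosl1* is low throughout, the erythroid row of the contralateral library is the lowest for most genes, and *Fos* is highest in Schwann and smooth muscle cells.

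For *Atf3*, *Jun*, and *Fos*, fibroblasts and smooth muscle cells stood in the opposite direction from T and NK cells between the contralateral and late libraries. In fibroblasts, late over contralateral levels were 4.16-fold for *Atf3*, 2.34-fold for *Jun*, 2.18-fold for *Fos*, 6.30-fold for *Ier3*, and 1.30-fold for *Egr1*. In smooth muscle cells (51 contralateral cells) they were 3.19-fold for *Atf3*, 2.05-fold for *Jun*, and 1.502-fold for *Fos*. In T and NK cells the same ratios were 0.573 for *Atf3*, 0.726 for *Jun*, 0.201 for *Fos*, and 0.249 for *Nr4a1*. *Ier3* went the other way, at 3.21-fold in T and NK cells. B cells stood with the fibroblasts for *Jun* (773 CPM in the contralateral and 2013 CPM in the late library) and *Atf3* (165 and 246 CPM), and *Fos* was at 454 and 414 CPM there. In monocytes and macrophages *Egr1* was at 1759 CPM in contralateral veins, 476 in early, and 904 in late AVFs, and *Jun* at 4340, 1379, and 2995 CPM. There was 1 library per condition, so these ratios have no test, and the library, the digestion, and the condition cannot be told apart.

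The lowest lineage of each library was then set against the highest vessel. On the shared gene scale, every lineage of at least 20 cells was above every vessel for 7 of the 9 members in early AVFs and for 7 in late AVFs, where 0.865% and 2.65% of all genes were, and for 2 (*Fosb* and *Jund*) in contralateral veins (0.372% of genes). The bulk level of *Jund* is uncertain here too. The exceptions were *Atf3* and *Ier3* in early AVFs, and *Egr1* and *Ier3* in late AVFs. For *Fos* in early AVFs the lowest lineage, B cells, was at 340 CPM and the highest vessel at 190 CPM. Some of these lineages were small or shallow, such as early endothelial cells (66 cells, *Fosb* at 154 CPM) and early platelets (median 687.5 UMIs). RNA from other cells of the suspension was not removed from these counts, and its part in the lineage levels was not tested.

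*Jun* and *Fosb* were found in a large part of the cells when depth was equalized, and the shares of the other members are not given here. Thinned to 1000 UMIs per cell, *Jun* was seen in 55.3% of contralateral, 60.6% of early, and 72.6% of late cells (70.1%, 87.8%, and 96.2% without thinning), with 1172, 433, and 389 shallower cells left out. *Fosb* was seen in 40.3%, 33.01%, and 55.9% of thinned cells (55.3%, 66.0%, and 87.9% without). Erythroid cells of the contralateral library, which should hold little such RNA, gave 16.8% for *Jun* and 10.63% for *Fosb* at the same thinned depth (median depth 2740 UMIs before thinning, 2751 over all contralateral cells). The erythroid markers summed to 854279 CPM in these cells, which leaves few UMIs for other genes at this depth. Their shares come from the contralateral library alone and set no background level for other lineages or libraries. *Fosb* was seen in 9.68% of early endothelial cells and 7.14% of early platelets.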

How the data were processed

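Bulk RNA-seq of 25 vessels and single-cell RNA-seq of 3 pooled libraries were analyzed. The bulk file holds read counts per gene, deposited by the authors without normalization. The submitters' processing notes name STAR, Cell Ranger, mm10, and GRCm38, and no source used here gives the counting tool or strand setting. The single-cell matrices hold UMI counts deposited by the authors from Cell Ranger 6.0.2, per the file headers.

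Counts of 12673 genes (mean normalized count of at least 100, of 56980) were fitted in edgeR 4.0.16 with TMM scaling and 1 mean per group over all 25 libraries. Quasi-likelihood p-values were Benjamini-Hochberg adjusted over all tested genes. Each bulk library is 1 vessel, and p-values measure the spread between vessels. Depth was 20254173 to 67457501 counts per bulk library, and the biological coefficient of variation was 0.843, which limits the changes that can be detected.

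Cells with 200 to 6000 genes and at most 10% mitochondrial UMIs were kept, clustered in scanpy 1.11.5 without the members, and named from marker lists. The rule for shallow clusters was tightened after seeing the clusters. Scrublet marked 0, 2, and 120 cells, so it did not work in the contralateral and early libraries, and leaving out the top 5% of UMIs per lineage was added. UMIs were summed per lineage and library, with 95% Poisson intervals that cover counting error only and a floor of 3 counts. Bulk and single-cell levels were compared as log2(CPM + 1) over 12371 genes. The bulk test was tested on simulated data. Transcript lengths and overlapping genes came from a GRCm38 annotation (GENCODE) that lacks some gene IDs of the bulk table. Members and lists were chosen with earlier results of these data known. Named genes were all members, at most 4 called genes per list and comparison by fold change, and the 5 genes most like the members. Alternatives covered the test, scaling, filter, sex, the samples fitted, leaving out each library, barcodes, pseudocount, and transcript length.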

Additional observations from a re-analysis of the deposited data

Results flagged for a closer look

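Of 39 sets of values (each member in each bulk group), 5 held a vessel whose gap to its nearest neighbor was large for the range of its group (Dixon's criterion, 95% level, by which chance marks about 1 set in 20). In contralateral vein 632, *Fos* was at 1040.2 CPM, where the next highest vein was at 322 CPM. In the same vein *Fosb* was at 56.1 CPM, where the next was at 3.62 CPM. This vein is 1 of the 2 males in its group, and 15.7% of tested genes were at 0 in its library. *Fosl1* was at 10.4 CPM in early AVF 6, where the next early AVF was at 3.27 CPM. *Atf3* was at 214 CPM in early AVF 7, where the next was at 119 CPM. *Ier3* was at 77.4 CPM in mid AVF 14, where the next was at 54.9 CPM.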

How the results depend on the processing

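No paired analysis was possible because the bulk groups share no replicate numbers and each single-cell condition has 1 library. In early against contralateral vessels 2 members were called, 0 with female mice alone or with only the 2 groups fitted, and 1 without the 2 libraries with most genes at 0 (contralateral 28 and 31; chosen after seeing the data); leaving out each library gave 0 to 2. The early count was 3 under DESeq2 (*Egr1* added), filterByExpr (*Fosl1* added), and without veins 632 and 633 (*Fosb* added), and with no filter *Ier3* was lost and *Fosl1* called. In mid vessels the count went from 0 to 1 with edgeR's filterByExpr or no filter (*Fosl1*) and without veins 632 and 633 (*Fosb*), and in late vessels to 1 under these and under DESeq2 (*Jund*). In late against early vessels it was 2 with only those groups fitted and 1 without libraries 28 and 31, and 0 to 1 over single libraries left out (1 without vein 31).

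Signs that changed were those of members not called. In early AVFs, *Fos* was at 1.24, *Fosb* 6.02, *Jun* 0.28, and *Atf3* 0.41 with female mice alone, *Fos* 0.90, *Fosb* 5.65, and *Jun* 0.024 without veins 632 and 633, *Atf3* 0.20 with sex as a term, and *Jund* 0.0048 without libraries 28 and 31. In mid AVFs, *Fosb* was at 7.56 and *Egr1* at 1.51 with female mice alone, 7.77 and 1.52 without veins 632 and 633, 1.02 and 0.15 with sex as a term, and *Egr1* at 0.0011 with only the 2 groups fitted, while *Fos* was at -0.13 and *Jun* at -0.028 without libraries 28 and 31. In late AVFs, *Fos* was at 1.74 and *Fosb* at 6.03 with female mice alone, 1.43 and 6.04 without veins 632 and 633, and *Jun* at -0.25 without libraries 28 and 31. With female mice alone, *Junb* was at -0.055 in mid against early, and *Jun* and *Junb* at 0.16 and 0.15 in late against mid AVFs. The cause of these changes was not tested.

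Over single libraries left out, early values ran from -1.33 to 0.14 for *Fos*, -2.52 to 1.56 for *Fosb* (both positive only without vein 632), -0.071 to 0.38 for *Junb*, and -0.53 to 0.64 for *Atf3*. Mid values ran from -0.13 to 1.43 for *Fos*, -0.38 to 3.68 for *Fosb*, -0.32 to 0.82 for *Egr1*, and -0.62 to 0.32 for *Atf3*. Late values ran from -0.89 to 0.67 for *Fos*, -2.10 to 1.95 for *Fosb*, -0.17 to 0.30 for *Jun*, and -0.42 to 0.082 for *Nr4a1*. *Atf3* ran from -0.44 to 0.12 in mid against early, and *Jund* from -0.37 to 0.045 in late against mid AVFs.

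The median single-cell level of the 10 members was 1127, 991, and 1741 CPM with all deposited barcodes in the contralateral, early, and late libraries, and 990.4 and 1853 CPM in the early and late libraries without the top 5% of UMIs. Against the median vessel, the median difference of single cells from bulk was 4.58 in contralateral veins and 4.88 in late AVFs, and that of contralateral *Fosb* was 10.3. All 9 members stayed above every vessel in all 6 alternatives and 3 conditions.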
